A study of Mus musculus with 10 samples.

Results

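The mitochondrial solute carriers of the SLC25 family were examined in the hearts of 10 mice. The members are the genes of the deposited table whose symbol starts with Slc25a, apart from Slc25a1, Slc25a10, Slc25a11, Slc25a12, Slc25a13, Slc25a20 and Slc25a44. The rule used symbols only and gave 28 members among 11790 genes. It leaves out the 7 carriers just named, so the values below describe most, and not all, of the 35 Slc25a genes in the table. RNA was compared between 5 mice with 3-phosphoinositide-dependent kinase 1 (PDK1) deleted in adipocytes (genotype Adipocyte-specific PDK1 knockout, called A-PDK1KO) and 5 PDK1 flox/flox mice (control), all randomly fed and 10 to 11 weeks old. The labels name the flox/flox alleles for the controls only. The sources used here do not give the Cre driver, the sex or the background strain. The deletion was made in fat cells, so a difference in the heart is a difference in a tissue that was not itself targeted.

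SLC25 carriers are membrane proteins, most of them in the mitochondrial inner membrane, built from repeats of a common fold. Each moves a small set of solutes, and most exchange a solute of the matrix for one outside. In a heart cell the busiest exchange is that of ATP made in the matrix for ADP made at the myofibrils, and phosphate enters alongside to feed the ATP synthase. Other members bring in amino acids, iron, coenzymes, nucleotides and glutathione, and a few sit in other membranes.

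Levels are in FPKM, fragments scaled to library size and to a kilobase of gene, which are scaled for gene length, so levels of different genes can be set side by side. The libraries held 9249256 to 11384423 reads each, as worked out from what 1 read is worth in each heart. Genotypes were compared with limma on log2(FPKM + 1) over the 9987 genes whose mean reached 1 FPKM, and a gene was called at a Benjamini-Hochberg adjusted p under 0.05. Differences are A-PDK1KO minus control on that log2 scale, where changes of low genes appear smaller than they are. The labels number the hearts and give no litter, batch or day. The p-values set a difference between genotypes against the variation between these samples. All 5 cardiomyocyte markers were present, with summed levels of 6534 to 8620 FPKM in control and 6397 to 7851 FPKM in A-PDK1KO hearts. The 4 adipocyte markers (Adipoq, Lep, Plin1 and Cidec) are not among the genes analysed here. Of 2 brown adipocyte markers, Ucp1 is not among them either. The other, Cidea, stood at 24.2 to 32.7 FPKM in control and 28 to 33.2 FPKM in A-PDK1KO hearts. Summed atrial markers were 111 and 87.7 FPKM in control replicates 2 and 5, 45.0 and 60.5 FPKM in replicates 3 and 5 of the A-PDK1KO genotype, and at most 1.01 FPKM in the other 6 hearts. Pdpk1, the gene of PDK1, stood at 3.14 to 3.77 FPKM in control and 2.73 to 4.04 FPKM in A-PDK1KO hearts, and whole-heart RNA does not test a deletion in fat cells. In bulk tissue, fewer cells of a type and less RNA per cell cannot be told apart.

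Slc25a4, the ADP/ATP carrier of muscle (also called ANT1), was lower in A-PDK1KO hearts and was the 1 member called. Its mean was 2310 ± 76.5 FPKM in control and 1888 ± 57.1 FPKM in A-PDK1KO hearts (SD, n = 5 per group), a difference of -18.3%. No member was called as higher. Among the positive differences that did not pass were those of Slc25a33, a pyrimidine nucleotide carrier, at 7.65 ± 1.35 and 11.7 ± 2.97 FPKM, and of the low gene Slc25a37, a mitochondrial iron importer, at 0.774 ± 0.233 and 1.31 ± 0.454 FPKM. Slc25a3, the phosphate carrier that works beside Slc25a4, had means of 216 ± 24.9 and 217 ± 7.20 FPKM.

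Of the 28 members 26 passed the filter on low values, and Slc25a14 and Slc25a47 did not. Among the 26, 1 (3.85%) was called, against 2.08% of all genes tested (0.871% as lower and 1.21% as higher). At an unadjusted p under 0.05 there were 10 members (38.5%), 6 higher and 4 lower, against 15.6% of all genes (8.53% higher and 7.03% lower). The 6 include Slc25a37, whose mean reached the filter only through the A-PDK1KO hearts, so the count is no support for a direction. With no filter there were 10 of 28 (35.7%, against 14.2% of all genes). Of these 10 only Slc25a4 passed adjustment. The members had a median difference of 0.03, with 15 above 0 and 11 below, and the median over all genes was 0.02. The groups did not overlap for 2 members (7.69%), Slc25a4 and Slc25a5, against 4.96% of all genes.

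**Figure D1:**
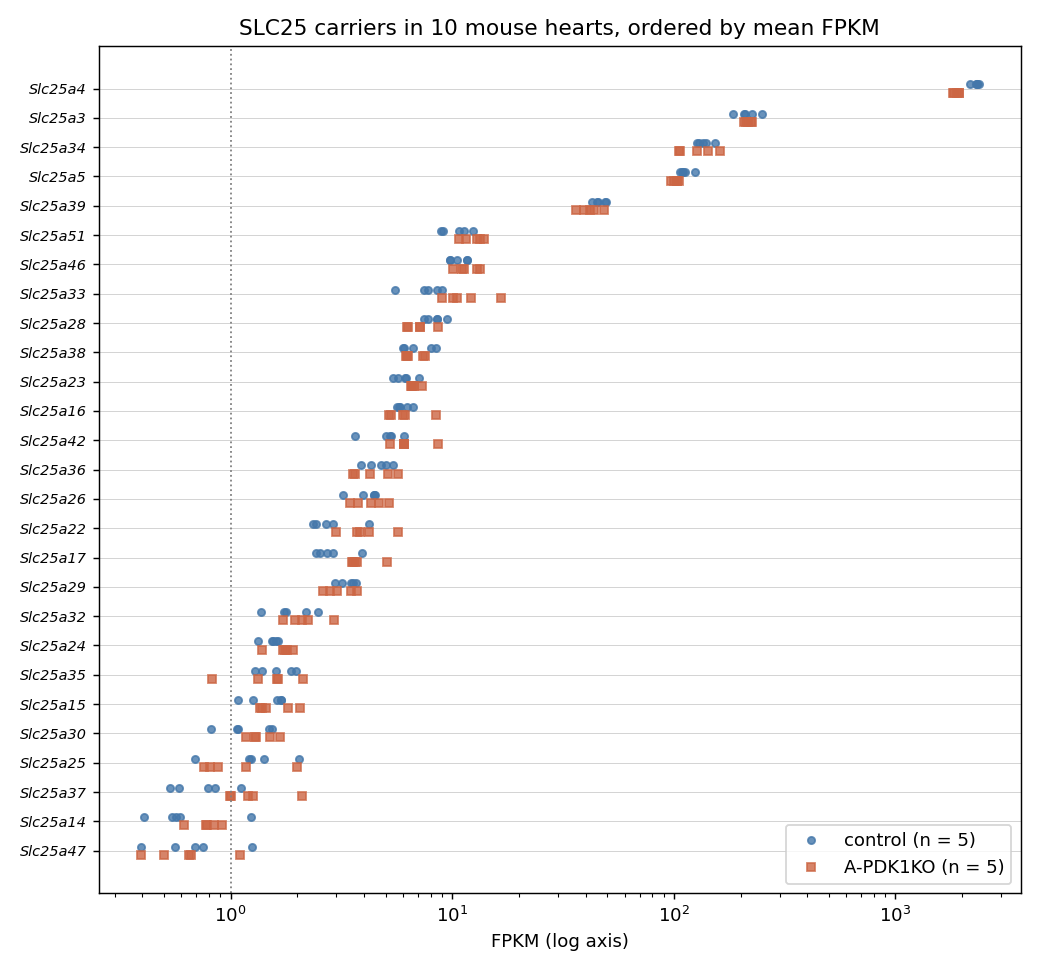
FPKM of 27 of the SLC25 carriers in each heart, on a log axis, ordered by mean (circles, 5 control hearts; squares, 5 A-PDK1KO hearts; dotted line, 1 FPKM). Slc25a4 stands apart at 1813 to 2372 FPKM, and most members have means between 1 and 10 FPKM.

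The family was dominated by a single gene. Slc25a4 had a mean of 2099 FPKM over all hearts, rank 18 of the 11790 genes and 9.71 times the mean of the next member. Slc25a3, Slc25a34 (a carrier with no settled substrate, listed below with the dicarboxylate type) and Slc25a5 followed at 216, 133 and 107 FPKM. Slc25a39, which imports glutathione, Slc25a51, the NAD+ importer, and Slc25a46, an outer membrane protein linked to mitochondrial shape, had means of 44.1, 11.5 and 11.2 FPKM. A further 19 members lay between 1 and 10 FPKM and 2 below 1 FPKM. Slc25a4 made up 78.1% to 80.0% of the summed FPKM of the members in control hearts and 74.5% to 77.0% in A-PDK1KO hearts. The sum itself was 2762 to 3038 FPKM in control and 2369 to 2563 FPKM in A-PDK1KO hearts. Without Slc25a4 it was 579 to 667 and 555 to 633 FPKM, and the groups overlapped.

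The ADP/ATP carriers exchange cytosolic ADP for matrix ATP and 2 of them were measured, Slc25a4 and the more widely expressed Slc25a5 (ANT2). Slc25a4 (mm10 chromosome 8, 46206797 to 46211284) stood at 2177, 2317, 2342, 2372 and 2340 FPKM in control replicates 1 to 5. In A-PDK1KO replicates 1 to 5 it stood at 1899, 1845, 1813, 1938 and 1943 FPKM. Every A-PDK1KO heart lay below every control heart, and the spread within a genotype was small, with a coefficient of variation of 3.31% in control and 3.02% in A-PDK1KO hearts. The difference was -0.29 ± 0.05 SE (95% interval -0.40 to -0.19, limma adjusted p = 0.0127, n = 5 per group). Between 42312 and 59003 reads per heart lay behind it. None of the 1876 windows of 50 bases in its longest coding transcript recurred in a transcript of another annotated gene, and its exons overlap no other gene. The call held with atrial tissue as a covariate (adjusted p = 0.0190) and with any 1 heart left out (up to 0.0466). It was lost on the TPM scale (adjusted p = 0.0555), with median-of-ratios factors (0.0585) and after quantile normalization (0.0572), where the difference was -0.28, -0.32 and -0.26. On the deposited scale, the TPM scale, with median-of-ratios factors and with mitochondrially encoded and haemoglobin genes left out of the scaling, the groups did not overlap.

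Slc25a5 (chromosome X, 36795651 to 36798807) was lower by a smaller amount, which did not pass the test. It stood at 110, 109, 112, 125 and 107 FPKM in controls 1 to 5 and at 100, 103, 97.3, 105 and 103 FPKM in the A-PDK1KO hearts 1 to 5. The groups were separated by a narrow margin, and they overlapped on the TPM scale and with mitochondrially encoded and haemoglobin genes left out of the scaling. The difference was -0.15 ± 0.06 SE (limma adjusted p = 0.225, n = 5 per group). Of the 1191 windows of 50 bases in its transcript, 46.6% recur in transcripts of 9 other genes, most often Gm5560, so its level depends on how reads with several matches were counted and is uncertain.

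Upstream sequence is shown for this pair because both stood lower in every A-PDK1KO heart on the deposited scale. The stretches are on the strand of the gene, from RefSeq on GRCm38.p6, the build that mm10 names. Capitals mark matches on either strand to 8 short motifs: the estrogen-related receptor (ERR) site with the letters TCAAGGTCA, the core of the cAMP response element with the letters TGACGT, the forkhead site with the letters TGTTTAC, the E-box with the letters CACGTG, the TATA box with the letters TATAAA, the GC box with the letters GGGCGG, the CCAAT box named by its letters, and the ETS site with the letters CCGGAAG. The E-box and the cAMP response core share the letters ACGT. The Slc25a4 stretch is chr8:46211167-46211196 (minus strand), bases 134 to 105 before the start site, and lies within an exon of a longer annotated transcript. The Slc25a5 stretch is chrX:36795347-36795596 (plus strand), the 250 bases before its start.
Slc25a4: gctcCCGGAAGcgtcttcgcccCCAATgcc
Slc25a5: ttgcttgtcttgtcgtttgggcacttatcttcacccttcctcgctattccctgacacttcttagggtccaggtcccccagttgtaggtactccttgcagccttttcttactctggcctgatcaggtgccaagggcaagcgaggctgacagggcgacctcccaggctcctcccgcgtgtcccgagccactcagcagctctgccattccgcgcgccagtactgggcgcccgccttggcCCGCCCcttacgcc
In the 250 bases before the start, Slc25a4 holds the CCAAT box and the ETS site and Slc25a5 holds the GC box, and they share none of the 8. Among 32851 mouse promoters of that length 33.8% hold the CCAAT box, 6.91% the ETS site and 32.7% the GC box. A promoter was found for 21 of the 28 members. Of these 16 hold the GC box, 12 the CCAAT box, 4 the ETS site, 3 the cAMP response core and 3 the E-box, and 0 hold the TATA box, the forkhead site or the ERR site, which occur in 12.4%, 3.17% and 0.387% of all promoters. The cAMP response core and the E-box occur in 6.47% and 6.02%. Such matches describe letters and do not show binding.

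**Figure D2:**
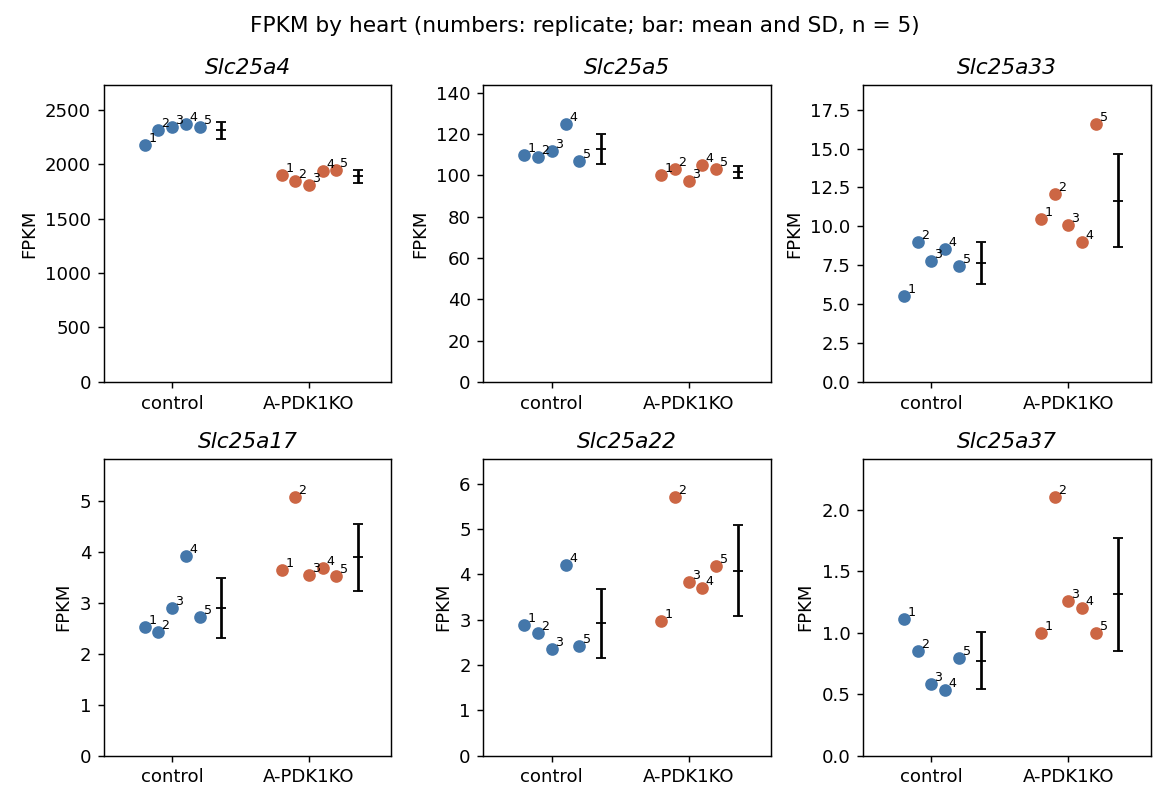
FPKM by heart for 6 carriers (points with replicate numbers; bars, mean and SD, n = 5 per group; each axis starts at 0). For Slc25a4 and Slc25a5 the A-PDK1KO points lie below the control points, whereas for the other 4 genes the groups overlap.

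The ratio of 2 related genes within a heart does not depend on how libraries are scaled, so 3 such ratios were compared with exact two-sided permutation tests, adjusted over the 3. The ratio of Slc25a5 to Slc25a4 was 0.0505, 0.0471, 0.0478, 0.0526 and 0.0459 in control replicates 1 to 5 and 0.0526, 0.0558, 0.0536, 0.0543 and 0.0528 in A-PDK1KO replicates 1 to 5. It was higher in A-PDK1KO hearts by 0.14 on the log2 scale (exact permutation p = 0.00794, the smallest that 5 hearts against 5 can give, adjusted p = 0.0238, n = 5 per group). Control replicate 4 lay just under the lowest A-PDK1KO heart. Slc25a4 is part of this ratio, so the ratio is not a result separate from the call of Slc25a4. The Slc25a5 count in it carries the uncertainty given above. Only 3 hearts per genotype had Myl7, the atrial light chain, under 10 FPKM, and among them the difference was 0.11 (adjusted p = 0.150, with so few hearts that no split can give a p under 0.10).

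**Figure D3:**
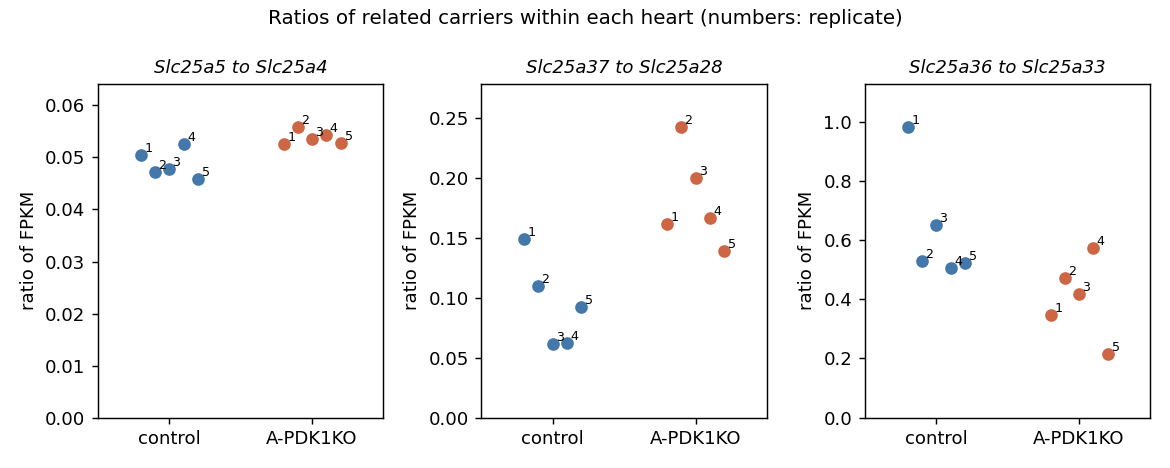
Ratio of FPKM within each heart for 3 pairs of related carriers (points with replicate numbers, 5 hearts per genotype, axes from 0). On average Slc25a5 to Slc25a4 and Slc25a37 to Slc25a28 lie higher in A-PDK1KO hearts and Slc25a36 to Slc25a33 lower. The groups overlap for Slc25a37 to Slc25a28 and for Slc25a36 to Slc25a33, and nearly meet for Slc25a5 to Slc25a4.

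Carriers of phosphate, ATP-Mg and dicarboxylate type showed no called member among 7 tested (2.08% of all genes). None had an unadjusted p under 0.05 (15.6% of all genes), and their differences lay between -0.13 and 0.13. With 7 genes these counts are no result about the type. Slc25a3 (chromosome 10, 91116574 to 91124059), which brings phosphate and copper into the matrix, stood at 184, 207, 226, 251 and 210 FPKM in controls 1 to 5 and at 217, 208, 211, 225 and 223 FPKM in the A-PDK1KO hearts 1 to 5. Its difference was 0.02 (95% interval -0.15 to 0.18), so a fall of the size seen in Slc25a4 lies outside its interval. Its sign turned with median-of-ratios factors (-0.01). Slc25a34 (chromosome 4, 141618824 to 141623821) spanned 127 to 154 FPKM in control hearts and 105 to 162 FPKM in A-PDK1KO hearts, and had a coefficient of variation of 7.63% and 19.0%. The calcium-regulated ATP-Mg/phosphate carriers were low. Slc25a23 was at 6.10 ± 0.641 and 6.74 ± 0.305 FPKM, Slc25a24 at 1.53 ± 0.122 and 1.72 ± 0.199 FPKM and Slc25a25 at 1.32 ± 0.481 and 1.12 ± 0.516 FPKM (SD, n = 5 per group). Slc25a30 and Slc25a35 had means of 1.29 and 1.57 FPKM, and 31.3% of the exon bases of Slc25a35 overlap Rangrf on the opposite strand. Slc25a14, an uncoupling protein relative, was at 0.405 to 1.23 FPKM from 9 to 27 reads and was not tested.

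Nucleotide, cofactor and glutathione carriers formed the largest group, with 10 tested, 0 called (2.08% of all genes) and 5 with an unadjusted p under 0.05, 4 of them higher (15.6% of all genes, and 8.53% as higher). Slc25a33 (chromosome 4, 149744036 to 149774277) carries pyrimidine nucleotides, the supply for mitochondrial DNA and RNA. It stood at 5.50, 8.99, 7.77, 8.55 and 7.42 FPKM in controls 1 to 5 and at 10.5, 12.1, 10.1, 8.98 and 16.6 FPKM in the A-PDK1KO hearts 1 to 5. The groups met at 1 point, where A-PDK1KO replicate 4 lay just below control replicate 2, and A-PDK1KO replicate 5 was the highest heart. The difference was 0.54 ± 0.15 SE (limma adjusted p = 0.102, n = 5 per group), the largest of the 26 on the log2(FPKM + 1) scale. With a pseudocount of 0.1 it was 0.59 and that of Slc25a37 was 0.68. It passed as higher only with mitochondrially encoded and haemoglobin genes left out of the scaling (0.60, adjusted p = 0.0470). The groups did not overlap on that scale or on the TPM scale. A predicted gene on the opposite strand, Gm13068, overlaps 14.9% of its exon bases.

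The stretch upstream of Slc25a33 is shown because this gene had the largest difference of the 26 on the log2(FPKM + 1) scale. It is chr4:149774278-149774517 (minus strand), bases 250 to 11 before the start site, with capitals as above, and holds a GC box, a CCAAT box and the cAMP response core, each on one or the other strand.
Slc25a33: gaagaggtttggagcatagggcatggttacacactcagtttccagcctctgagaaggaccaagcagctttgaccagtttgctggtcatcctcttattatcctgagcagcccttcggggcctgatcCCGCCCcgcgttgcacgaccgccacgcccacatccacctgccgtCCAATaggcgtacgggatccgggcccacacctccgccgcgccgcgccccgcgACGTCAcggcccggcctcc
The promoter of Slc25a36, the other pyrimidine nucleotide carrier, holds the same 3 motifs, and both genes hold an E-box within 250 bases.

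Slc25a36 showed no difference past the threshold. It stood at 3.87 to 5.40 FPKM in control and 3.55 to 5.71 FPKM in A-PDK1KO hearts, with a difference of -0.07 (95% interval -0.33 to 0.19). The ratio of Slc25a36 to Slc25a33 was 0.981, 0.529, 0.650, 0.504 and 0.522 in control replicates 1 to 5 and 0.346, 0.473, 0.419, 0.574 and 0.214 in A-PDK1KO replicates 1 to 5. It was lower in A-PDK1KO hearts by a log2 difference of -0.68 (exact two-sided permutation test, p = 0.0476, adjusted p = 0.0476, n = 5 per group). The groups overlapped, and the call was lost when any 1 of 8 hearts was left out. Without control replicate 1, which had the highest ratio, the log2 difference was -0.51 (adjusted p = 0.111), and without A-PDK1KO replicate 5, which had the lowest, it was -0.47 (adjusted p = 0.103). Slc25a33, with a difference of 0.54 and not called, is part of this ratio, so the ratio is not a result separate from Slc25a33. Of the 5178 windows of 50 bases in the Slc25a36 transcript, 11.8% recur in Gm13217.

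Coenzyme carriers of this group were given by values. Slc25a42, a coenzyme A carrier, was at 5.06 ± 0.875 and 6.40 ± 1.28 FPKM (adjusted p = 0.310 by limma). Slc25a17, which sits in peroxisomes and carries coenzyme A and adenine nucleotides, was at 2.91 ± 0.599 and 3.91 ± 0.661 FPKM (adjusted p = 0.181 by limma). Its groups overlapped through control replicate 4, at 3.92 FPKM, while the other controls lay at 2.43 to 2.91 FPKM and the A-PDK1KO hearts at 3.53 to 5.08 FPKM. Slc25a51 was at 10.5 ± 1.47 and 12.5 ± 1.34 FPKM (adjusted p = 0.278 by limma). These 3 had differences of 0.29, 0.33 and 0.24, and in each the groups overlapped. That of Slc25a42 was 0.19 without A-PDK1KO replicate 2 and also 0.19 without control replicate 1. Slc25a39 was at 46.5 ± 2.87 and 41.8 ± 4.66 FPKM. Slc25a16, Slc25a26 (the S-adenosylmethionine carrier) and Slc25a32 (a folate and FAD carrier) had means of 6.12, 4.19 and 2.05 FPKM and differences of 0.02, 0.05 and 0.13.

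**Figure D4:**
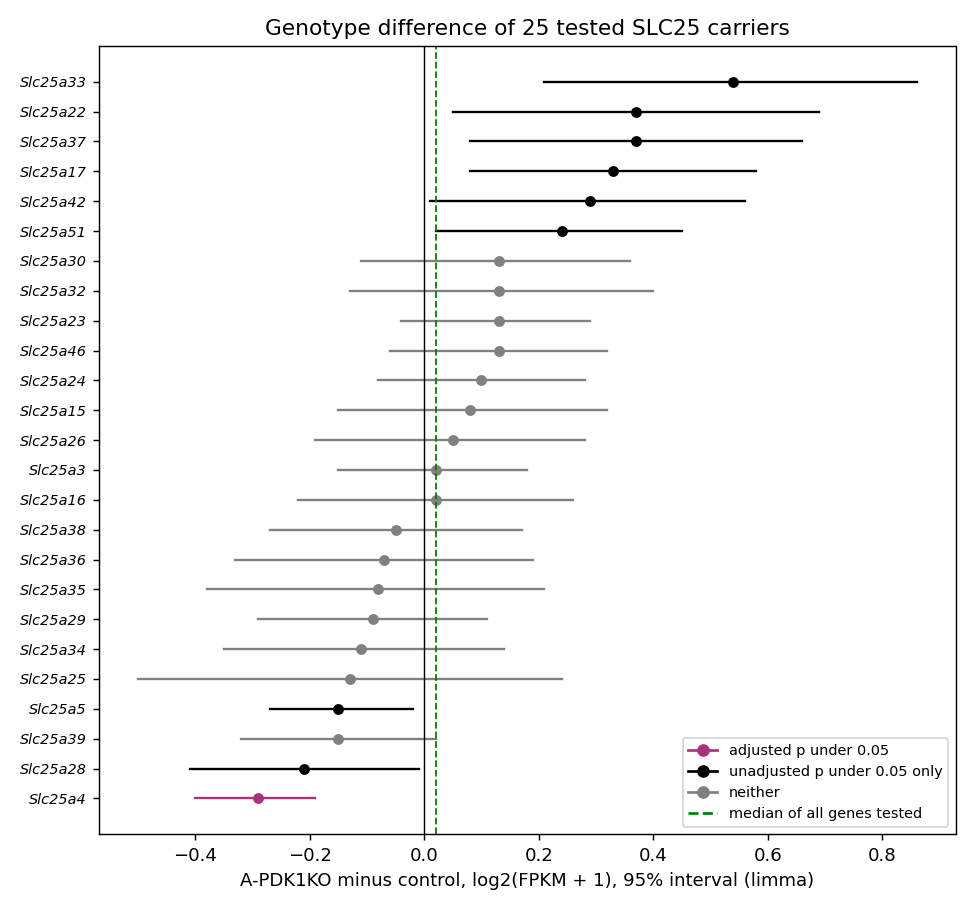
Difference between genotypes on the log2(FPKM + 1) scale with its 95% interval from limma for 25 of the tested carriers (dashed line, median of all 9987 genes, 0.02). Slc25a4 at -0.29 is the 1 gene called, and 8 others shown have an unadjusted p under 0.05, as have 15.6% of all genes tested. Slc25a37, among the 8, reached the filter only through the A-PDK1KO hearts.

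Iron enters mitochondria through the mitoferrins Slc25a28 and Slc25a37, the first expressed in most tissues and the second known best from developing red cells. Slc25a37 (chromosome 14, 69241848 to 69285112) stood at 1.11, 0.852, 0.582, 0.533 and 0.791 FPKM in controls 1 to 5 and at 1.00, 2.10, 1.26, 1.20 and 0.994 FPKM in the A-PDK1KO hearts 1 to 5, from 31 to 123 reads. Slc25a28 (chromosome 19, 43663801 to 43674881) pointed the other way, at 8.36 ± 0.782 and 7.11 ± 0.969 FPKM. The groups overlapped for both, although for Slc25a28 they did not with median-of-ratios factors. Slc25a28 did not pass the test (difference -0.21, limma adjusted p = 0.299). The mean of Slc25a37 reached the filter of 1 FPKM only through the A-PDK1KO hearts, so its difference of 0.37 is given as a description (0.68 with a pseudocount of 0.1 and 0.74 with voom on recovered reads). Their ratio, Slc25a37 to Slc25a28, was 0.149, 0.110, 0.0615, 0.0625 and 0.0923 in control replicates 1 to 5 and 0.161, 0.242, 0.200, 0.166 and 0.139 in A-PDK1KO replicates 1 to 5. It was higher in A-PDK1KO hearts by 0.99 on the log2 scale (exact two-sided permutation test, p = 0.0159, adjusted p = 0.0238, n = 5 per group), with control replicate 1 the only control above the lowest A-PDK1KO heart. With a pseudocount of 1 FPKM the difference of the ratio was 0.58 (adjusted p = 0.0238 by the same exact test). The ratio contains Slc25a37, with the limit just given. It is likewise a description, and its p-values are no support for a difference. The 5 erythroid markers, chiefly haemoglobins, summed to 27.9 to 1391 FPKM in control and 68.6 to 228 FPKM in A-PDK1KO hearts. Control replicate 1 had both the highest sum and the highest control ratio, and the part of blood in this ratio was not tested. Predicted genes on the opposite strand overlap 6.33% of the exon bases of Slc25a37, and 8.07% of its windows of 50 bases recur in Gm16867.

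Amino acid carriers had 0 called of 4 tested (2.08% of all genes), too few for the count to be a result. Slc25a22, a glutamate carrier (chromosome 7, 141429744 to 141437892), stood at 2.89, 2.70, 2.36, 4.21 and 2.43 FPKM in controls 1 to 5 and at 2.98, 5.70, 3.84, 3.71 and 4.19 FPKM in the A-PDK1KO hearts 1 to 5. The high control heart, replicate 4, kept the groups from separating (difference 0.37 ± 0.15 SE, limma adjusted p = 0.244, n = 5 per group). Slc25a38, which supplies glycine for haem synthesis, was at 7.02 ± 1.13 and 6.72 ± 0.659 FPKM. Its difference was -0.05, and turned to 0.01 with mitochondrially encoded and haemoglobin genes left out of the scaling. Slc25a29, a carrier of basic amino acids, and Slc25a15, the ornithine carrier, had means of 3.25 and 1.54 FPKM and differences of -0.09 and 0.08. Slc25a46 (chromosome 18, 31556111 to 31609911) was at 10.6 ± 0.930 and 11.8 ± 1.38 FPKM, with a difference of 0.13 (95% interval -0.06 to 0.32). Slc25a47, known from liver, was at 0.394 to 1.25 FPKM from 12 to 36 reads and was not tested.

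A-PDK1KO replicate 2 was the highest heart of its genotype in 18 of the 28 members (64.3%), and in 54.4% of all genes tested. Control replicate 4 was the highest control in 13 members and in 47.7% of all genes. These were the hearts with the lowest share of reads from mitochondrially encoded genes, 34.6% and 32.9%, against 36.4% to 41.8% in the other 8, and the part of that share in the members' values was not tested. Without A-PDK1KO replicate 2 the count of members with an unadjusted p under 0.05 was 6 of 25 (24.0%, against 15.5% of all genes), 2 higher (Slc25a33 and Slc25a17) and 4 lower, Slc25a4, Slc25a5 and Slc25a28 among them. Slc25a22, Slc25a42 and Slc25a51 no longer reached it, and Slc25a37 was below the filter. On the TPM scale 5 of 26 members reached it (19.2%, against 11.7%).

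Carriers are inserted into the inner membrane by the TIM22 route, in which TOM receptors pass them to small TIM chaperones of the intermembrane space. Of the 11 import genes tested 0 were called (2.08% of all genes) and 10 had differences below 0 (median -0.10), as had 4530 of all 9987 genes (median 0.02). At an unadjusted p under 0.05 there was 1 (9.09%, against 15.6% of all genes). This was Tomm20, an import receptor, at 16.2 ± 0.865 and 13.9 ± 2.08 FPKM (adjusted p = 0.253 by limma). Tomm20 passed as lower without A-PDK1KO replicate 2 (adjusted p = 0.0406 by limma). Tomm40, the import pore, was at 10.5 ± 0.606 and 9.42 ± 0.801 FPKM. The small TIM chaperones Timm8b and Timm8a1 had differences of -0.16 and -0.19 (-0.10 and -0.08 without control replicate 1), and Timm22, the insertion channel, one of 0.08.

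Carrier relatives without an Slc25a symbol had 0 called of 4 tested (2.08% of all genes), again too few for a result. Ucp3, the muscle uncoupling protein, stood at 7.31 to 10.7 FPKM in control and at 10.1 to 26.7 FPKM in A-PDK1KO hearts (difference 0.50 ± 0.21 SE, limma adjusted p = 0.289, n = 5 per group). A-PDK1KO replicate 2 was the highest, and without it the difference was 0.26. Ucp2, Mtch1 and Mtch2 had differences of -0.06, -0.10 and -0.07. Among 18 other mitochondrial membrane transporters 0 were called (2.08% of all genes). At an unadjusted p under 0.05 there were 3 (16.7%, close to the 15.6% of all genes). These were Mpc1, a subunit of the pyruvate carrier, at 76.3 ± 5.96 and 66.1 ± 3.35 FPKM, Mcu, the pore of the calcium uniporter, at 1.87 ± 0.369 and 2.45 ± 0.311 FPKM, and Smdt1, its small regulator EMRE, at 68.0 ± 4.84 and 60.7 ± 2.63 FPKM.

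General mitochondrial genes gave 2 called of 15 tested (13.3%, against 2.08% of all genes), both lower (0.871% of all genes). The list was chosen with earlier results of these data known, so this share is no result about mitochondrial genes as a group. Chchd3, a cristae organising protein, fell from 164 ± 11.2 to 130 ± 3.06 FPKM (difference -0.33 ± 0.06 SE, limma adjusted p = 0.0160, n = 5 per group). Phb, a prohibitin of the inner membrane, fell from 91.8 ± 3.88 to 78.1 ± 2.77 FPKM (adjusted p = 0.0444 by limma). Chchd3 was lost with median-of-ratios factors (adjusted p = 0.0585), with A-PDK1KO replicate 3 left out (0.0523) and with replicate 5 of that genotype left out (0.0513). The call of Phb held in 1 of the 10 fits that left out a heart (adjusted p up to 0.117, without control replicate 3). It was also lost under 8 of the 12 other settings (up to 0.194, with quantile normalization). The median difference of the 15 genes was 0.01, with 8 above 0. Citrate synthase (Cs) and the ATP synthase subunit Atp5b, at 155 ± 21.7 and 161 ± 7.34 FPKM and at 1057 ± 95.8 and 1053 ± 48.7 FPKM, are given for scale, chosen with their values known.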

How the data were processed

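Heart RNA from 5 A-PDK1KO and 5 control mice was measured, and genotype and replicate number were taken from the sample titles. The deposited values are FPKM per gene, 1 column per sample, for 11790 genes that reach 1.00 FPKM in at least 1 sample. Trimmomatic 0.38, HISAT2 2.1.0, featureCounts 1.6.3 and the build mm10 stand in the submitters' processing notes, and FastQC 0.11.7 in the labels. The sources used here give no annotation or strand setting. Whole reads (within 0.05) were recovered for 98.3% of genes with union exon lengths of GENCODE mouse release 21, and for all 28 members.

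FPKM were tested as log2(FPKM + 1) with limma 3.58.1 in R 4.3.3 (empirical Bayes trend, two-sided, no covariate, mean of at least 1 FPKM), over the whole table. The script was tested on simulated reads. It recovered 0% of genes changed 1.25-fold, 36.5% of those changed 1.5-fold and 97.3% of those changed 2-fold. The simulated dispersion was the same for all genes, so these shares need not hold for each gene. Slc25a4, which varied little between hearts, was called with a control mean 1.22 times that of A-PDK1KO. A gene that was not called may still differ by a modest amount. Ratios of FPKM were compared by exact permutation of the hearts. Members and gene lists were chosen with earlier results of these data known. Named are members called or with an unadjusted p under 0.05, the 6 highest, the highest of each role and of each ratio, and up to 4 genes per context list (called ones, otherwise those of smallest p). Other members are given by value, 1 member and 1 other gene that the rule names are not reported here, and Timm22 was named after its value was seen. Alternatives were other pseudocounts, filters, scalings, variances, covariates, a replicate block, limma voom on recovered reads and each heart left out.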

Additional observations from a re-analysis of the deposited data

Results flagged for a closer look

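In 62 sets of 5 hearts (28 members and 3 ratios in each genotype), a heart was picked out when its gap to the nearest other heart took up more than 0.71 of the range of its set. For independent sets of normally distributed values this would happen in about 1 in 20, and it occurred in 9. The sets share the same hearts and the ratios reuse members, so they are not independent. The share over all genes was not worked out, so the count is no result about the family. A-PDK1KO replicate 2 accounted for 5 of them, as the highest heart each time. It had 5.08 FPKM of the peroxisomal carrier Slc25a17 against 3.53 to 3.70 FPKM in the rest of its genotype, 2.10 FPKM of Slc25a37 against 0.994 to 1.26, 8.61 FPKM of Slc25a42 against 5.24 to 6.07, 8.45 FPKM of Slc25a16 against 5.17 to 6.11 and 7.27 FPKM of Slc25a23 against 6.54 to 6.72. Control replicate 4 was high for Slc25a22, at 4.21 FPKM against 2.36 to 2.89 in the other controls, and for Slc25a5, at 125 FPKM against 107 to 112. Control replicate 1 was low for Slc25a4, at 2177 FPKM against 2317 to 2372, and high for Slc25a14, at 1.23 FPKM against 0.405 to 0.592.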

How the results depend on the processing

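The 1 member called as lower, Slc25a4, was called in each fit that left out a heart (1 to 1). The count was 0 on the TPM scale (Slc25a4 at -0.28), with median-of-ratios factors (-0.32) and with quantile normalization (-0.26), and 1 under the other 9 settings. No member was called as higher, except 1 with mitochondrially encoded and haemoglobin genes left out of the scaling. Over all genes calls numbered 208, but 62 on the TPM scale, 390 with that scaling (323 higher and 67 lower, against 121 and 87), 412 with sample weights and 57 to 150 with a heart left out. The family's median difference stayed between -0.01 and 0.09. Slc25a3 turned to -0.01 with median-of-ratios factors and ranged from -0.04 to 0.07 with a heart left out. Slc25a38 turned to 0.01 with the scaling without mitochondrial and haemoglobin genes and ranged from -0.10 to 0.01, and Ucp2 from -0.11 to 0.05. Import machinery calls were 0 to 1 with a heart left out. Other membrane transporters had 1 call with sample weights (Mpc1). General mitochondrial calls, 2 in all (Chchd3 and Phb), were 0 with median-of-ratios factors, 1 with no filter, the TPM scale, quantile normalization, the scaling without mitochondrial and haemoglobin genes, the atrial covariate, the replicate block or voom, and 0 to 2 with a heart left out. The cause of these shifts was not tested.

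Replicate numbers are shared between genotypes but are not said to mark pairs, and deviations of same-numbered hearts correlated between -0.12 and 0.09. With the replicate block Slc25a4 kept its call (adjusted p = 0.0444), calls over all genes fell to 153, and the paired ratios did not pass: 0.14 for Slc25a5 to Slc25a4 and 0.99 for Slc25a37 to Slc25a28 (adjusted p = 0.0938 for both), and -0.68 for Slc25a36 to Slc25a33 (0.188). With 5 pairs the exact test cannot pass the threshold. Among the 6 hearts with Myl7 under 10 FPKM the log2 differences of the ratios were 0.11, 1.17 and -0.59 (adjusted p = 0.150, 0.150 and 0.200). With a heart left out they ranged from 0.12 to 0.17, from 0.86 to 1.17 and from -0.82 to -0.47. The first 2 stayed under the threshold, the second with the limit given for Slc25a37. Slc25a37 has no value without A-PDK1KO replicate 2 or at a filter of 5 FPKM. Depth limits the 8 members with a mean under 2 FPKM, where as few as 9 reads lay behind a value.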

Other observations

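The spread between hearts of one genotype differed widely along the family. The coefficient of variation of Slc25a25, an ATP-Mg/phosphate carrier, was 36.6% in control and 45.9% in A-PDK1KO hearts, from 55 to 163 reads. It stood at 1.42, 0.690, 2.03, 1.21 and 1.23 FPKM in controls 1 to 5 and at 0.875, 0.809, 0.760, 1.17 and 2.00 FPKM in the A-PDK1KO hearts 1 to 5. High and low hearts occurred in both genotypes. Slc25a24, of the same carrier type and at a like level, varied by 7.94% and 11.6%, from 44 to 68 reads.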
